A study of Mus musculus with 3 samples.

Results

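The complement genes examined were C4b, C3, the 3 C1q chains C1qa, C1qb and C1qc, and the regulators Clu, Serping1, Cd59a and Cd46, taken by symbol from the table of nuclear UMI counts. All 9 were among its 31040 genes. UMIs (unique molecular identifiers, each marking 1 captured RNA molecule) were summed per mouse over each deposited cell type and glial sub-cluster and compared between genotypes. Levels are given in CPM, the UMIs of a gene per 1000000 UMIs of that cell type in that mouse.

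Nuclei came from the lumbar spinal cord of 12 mice at 90 days of age. The SOD1G93A group (3 females, 3 males) was B6.Cg-Tg(SOD1*G93A)1Gur/J, a high-copy transgenic line that carries human SOD1 with an ALS mutation under its own human promoter, and the wild-type group (WT; 3 females, 3 males) was C57BL/6J littermates. Each of 3 pools (A, B and C) held 1 mouse of every sex and genotype, so that 6 pairs of a SOD1G93A and a WT mouse share sex and pool. Nuclei were assigned to mice by hashtag antibodies, and since a group had the same hashtag in every pool, hashtag and group cannot be told apart.

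Complement is a cascade of plasma and tissue proteins that tags cells and debris for removal. C1q starts the classical pathway, C4 and C3 are cleaved in turn and bind to surfaces, and regulators stop the cascade at its start, at C3 or at the membrane pore. In the central nervous system microglia are the main source of C1q, reactive astrocytes and oligodendrocytes can make C4, and clusterin is an abundant astrocyte product.

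The series holds 14662 nuclei, 8841 WT and 5821 SOD1G93A, with 206486779 UMIs and a median of 9434 UMIs per nucleus. A mouse gave 548 to 2259 nuclei and 6411715 to 36668441 UMIs. Sod1 stood at 31.2 to 106 CPM in WT mice and at 174 to 594 in SOD1G93A mice, with no overlap. Reads of the human transgene may also be counted there, which was not tested. Per mouse there were 268 to 1565 neurons, 44 to 387 oligodendrocytes, 45 to 250 astrocytes, 5 to 41 nuclei labelled microglia and 1 to 11 motor neurons. Of the barcode sequences, 15 occurred in more than 1 pool. In 2 types the markers of the label lay far below those of oligodendrocytes in both genotypes. Nuclei labelled microglia had medians of 57.5 (WT) and 110 (SOD1G93A) CPM for Cx3cr1, Csf1r and Ptprc together. The oligodendrocyte markers Mbp and Mog had 1216 and 1214, neuron markers 490 and 536, and oligodendrocyte precursor markers 581 and 600. Itgam was at 0 UMIs in the whole table, in every type, and so does not bear on this label. Nuclei labelled Schwann and meningeal had medians of 122 and 103 for Pmp22 and Prx and of 2200.5 and 1563 for the oligodendrocyte markers, at a median depth of 1584 UMIs. Both are called by their label below. Fibroblasts (0 to 11 nuclei per mouse) had medians of 214 CPM for their own and 614 for oligodendrocyte markers in WT mice. In SOD1G93A mice these were 496 and 218.

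On GRCm38 (mm10) the C1q genes lie side by side on the minus strand of chromosome 4, C1qb at chr4:136880129-136886187, C1qc at chr4:136889804-136893065 and C1qa at chr4:136895917-136898803, with 3616 and 2851 bases between neighbours. Upstream sequence was at hand for 5 of the 9 members. The 250 bases before the start of C1qb (chr4:136886201-136886450) and C1qc (chr4:136892915-136893164), from RefSeq on GRCm38.p6, minus strand, are shown because these neighbours encode chains of 1 protein. Capitals mark GAGGAA, the core that the myeloid factor PU.1 binds, or its reverse complement.
C1qb: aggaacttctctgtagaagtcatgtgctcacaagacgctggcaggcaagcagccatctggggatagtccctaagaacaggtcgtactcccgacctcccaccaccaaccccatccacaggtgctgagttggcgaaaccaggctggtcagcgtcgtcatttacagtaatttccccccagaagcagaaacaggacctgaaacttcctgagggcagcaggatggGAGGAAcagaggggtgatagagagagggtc
C1qc: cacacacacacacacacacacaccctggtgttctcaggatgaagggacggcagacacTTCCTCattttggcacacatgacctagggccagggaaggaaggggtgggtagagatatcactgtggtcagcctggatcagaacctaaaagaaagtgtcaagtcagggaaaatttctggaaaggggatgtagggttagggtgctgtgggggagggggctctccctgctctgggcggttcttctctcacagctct
These windows are counted from the RefSeq starts, 136886200 for C1qb and 136892914 for C1qc. The gene positions above are from GENCODE, which starts C1qc at 136893065, so 151 of the 250 bases shown for C1qc lie inside the GENCODE gene. The match began 30 bases before the RefSeq start in C1qb, and in C1qc it lay on the other strand 193 bases before the RefSeq start. On either strand GAGGAA occurs in 23.3% of 32851 windows of this length, so a match is common. In these windows and in that of Cd46, the AP-1 letters TGANTCA (in 6.75% of windows), the STAT letters TTCNNNGAA (7.02%) and the interferon-response element (2.98%) were not found.

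Over the 10 cell types the members passed the filter on low counts in 32 combinations of gene and type, and 6 of these were called between genotypes at a false discovery rate (FDR) under 0.1 in limma, with Benjamini-Hochberg adjustment over all genes of the type. Of all gene tests in these types 0.568% were called. C4b was higher in SOD1G93A astrocytes, oligodendrocytes, nuclei labelled microglia and neurons, Clu was higher in astrocytes and Cd46 was higher in motor neurons. Among all genes tested, 2.29% were called in astrocytes, 0.0475% in oligodendrocytes, 0.0759% in nuclei labelled microglia, 0.0255% in neurons and 3.07% in motor neurons. No member was called lower.

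**Figure D1:**
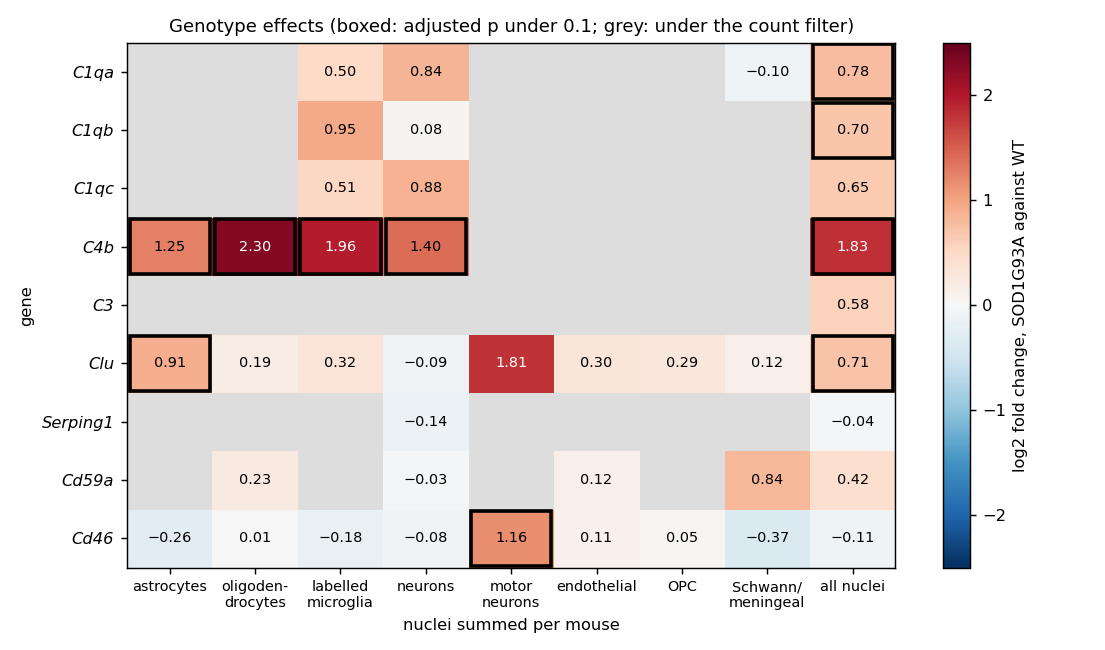
Log2 fold change of each member (vertical axis) between SOD1G93A and WT mice for each set of nuclei summed per mouse (horizontal axis), by colour and number. Boxes mark adjusted p under 0.1 and grey marks genes under the count filter. The C4b row holds 1.25 in astrocytes and 2.30 in oligodendrocytes, both boxed.

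Of the early classical components, C4b (chr17:34728380-34743882), which encodes complement C4, had 272 UMIs in WT and 614 in SOD1G93A mice. In oligodendrocytes the WT mice had 2.60 at the lowest, a median of 4.27 and 8.28 CPM at the highest, and the SOD1G93A mice 16.9, 24.6 and 35.8. Every SOD1G93A mouse lay above every WT mouse, which held for 0.152% of the genes tested there. The log2 fold change was 2.30 (SE 0.25, FDR 0.0014, limma). It rested on 53 and 203 UMIs.

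In astrocytes C4b stood at 12.0, 14.9 and 19.2 CPM (lowest, median, highest) in WT and at 27.3, 38.4 and 54.3 in SOD1G93A mice. The SOD1G93A mice all lay above the WT mice, as for 0.899% of genes tested in astrocytes. The log2 fold change was 1.25 (SE 0.21, FDR 0.0030, limma). Within pools A, B and C the mean difference of log2(CPM + 1) was 1.55, 1.08 and 1.17 in astrocytes and 1.48, 2.54 and 2.44 in oligodendrocytes, higher in 6 of 6 pairs in both types.

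In nuclei labelled microglia C4b stood at 2.73, 3.65 and 4.43 CPM in WT and at 8.51, 14.3 and 31.0 in SOD1G93A mice. Here too the SOD1G93A mice all lay above the WT mice (0.271% of genes tested), and the log2 fold change was 1.96 (SE 0.30, FDR 0.0067, limma). The counts were small, with 43 and 74 UMIs, and with the pool A SOD1G93A male left out the FDR was 0.141 at a log2 fold change of 1.98. These nuclei carry more oligodendrocyte, neuron and oligodendrocyte precursor markers than microglial markers. Pooled over all mice, the 71 with a C4b UMI carried 1242 CPM of oligodendrocyte markers against 1297 in the 152 others. Microglial markers were at 71.3 against 77.4 and astrocyte markers at 43.8 against 37.8, at a median depth of 84879 against 37041 UMIs. Which cells the C4b molecules came from was not tested.

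In neurons the C4b level was low, at 0.590, 0.761 and 1.15 CPM in WT and 1.79, 2.26 and 2.73 in SOD1G93A mice. The SOD1G93A mice all lay above the WT mice (0.0893% of genes tested), and the log2 fold change was 1.40 (SE 0.20, FDR 0.0243, limma). Oligodendrocyte markers were at 117, 163 and 210 CPM in WT neurons and at 146, 198 and 296 in SOD1G93A neurons, with overlap. Medians of microglial markers (11.9 and 14.4) and astrocyte markers (20.0 and 22.6) were also higher in SOD1G93A mice, with overlap. Pooled over all mice, the 159 neurons with a C4b UMI (74 WT and 85 SOD1G93A) carried 506 CPM of oligodendrocyte markers against 154 in the 8641 others. An oligodendrocyte marker UMI was found in 82.4% of the 159 and in 62.8% of the others. The neurons with a C4b UMI also carried more microglial markers (28.8 against 13.2 CPM) and astrocyte markers (29.5 against 21.01), at a median depth of 18804 against 12810 UMIs. In neurons at or under the median of oligodendrocyte marker UMIs, C4b had a mean of 0.683 in WT and 0.895 in SOD1G93A mice, with overlap and a log2 fold change of 0.37 (FDR 0.872, limma, no count filter). In fits of all neurons that left out 1 mouse the log2 fold change stayed between 1.34 and 1.48, and the FDR was above 0.1 in 7 of 12.

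**Figure D2:**
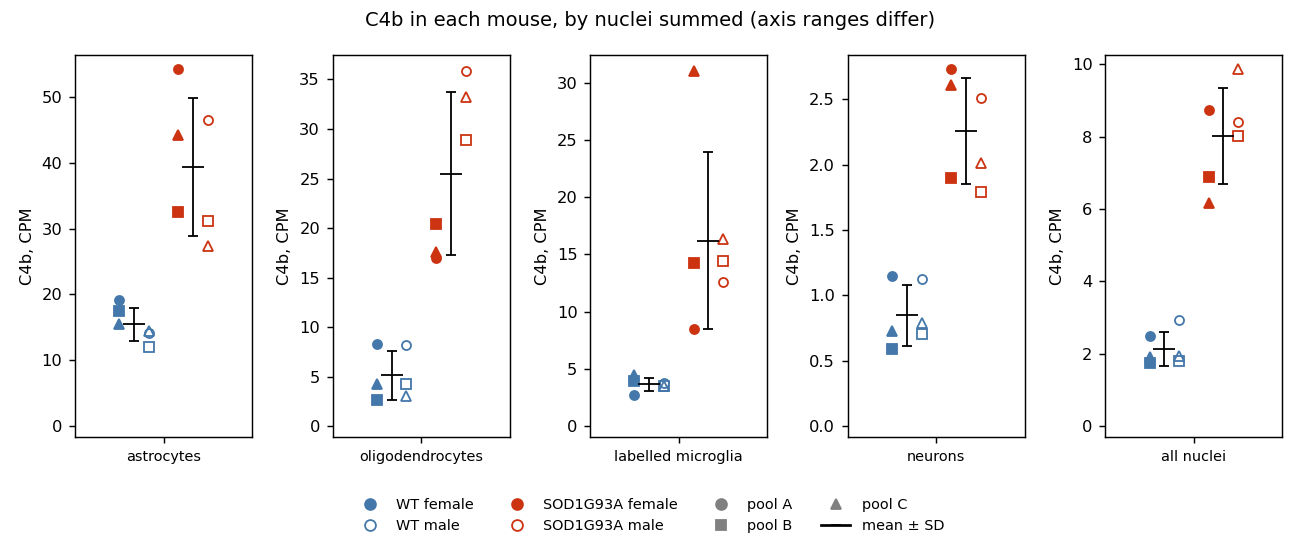
C4b in each mouse in CPM (vertical axes, with different ranges) for 4 cell types and for all nuclei. Each symbol is 1 mouse, filled for females and open for males, with the shape giving the pool and black bars the mean ± SD of 6 mice. In each panel the 6 SOD1G93A mice sit above the 6 WT mice.

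An alternative chosen after seeing the data took oligodendrocytes without any astrocyte marker UMI (Aqp4, Aldh1l1, Gfap). They averaged a C4b level of 3.89 CPM in WT and 29.8 in SOD1G93A mice (log2 fold change 2.79, FDR 0.0036, limma). Again the SOD1G93A mice all lay above the WT mice, as for 0.152% of genes tested in oligodendrocytes. Astrocyte markers in oligodendrocytes ranged from 54.1 to 98.4 CPM in WT and from 52.8 to 95.8 in SOD1G93A mice. In astrocytes both marker lists moved with genotype. Astrocyte markers ranged from 867 to 1122 in WT and from 1672 to 2225 in SOD1G93A mice, and oligodendrocyte markers from 601 to 909 and from 759 to 1509. In astrocytes at or under the median of oligodendrocyte marker UMIs, C4b was under the count filter, and without the filter its log2 fold change was 1.42 (FDR 0.0904, limma). The part that the higher astrocyte markers have in the C4b difference was not tested.

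**Figure D3:**
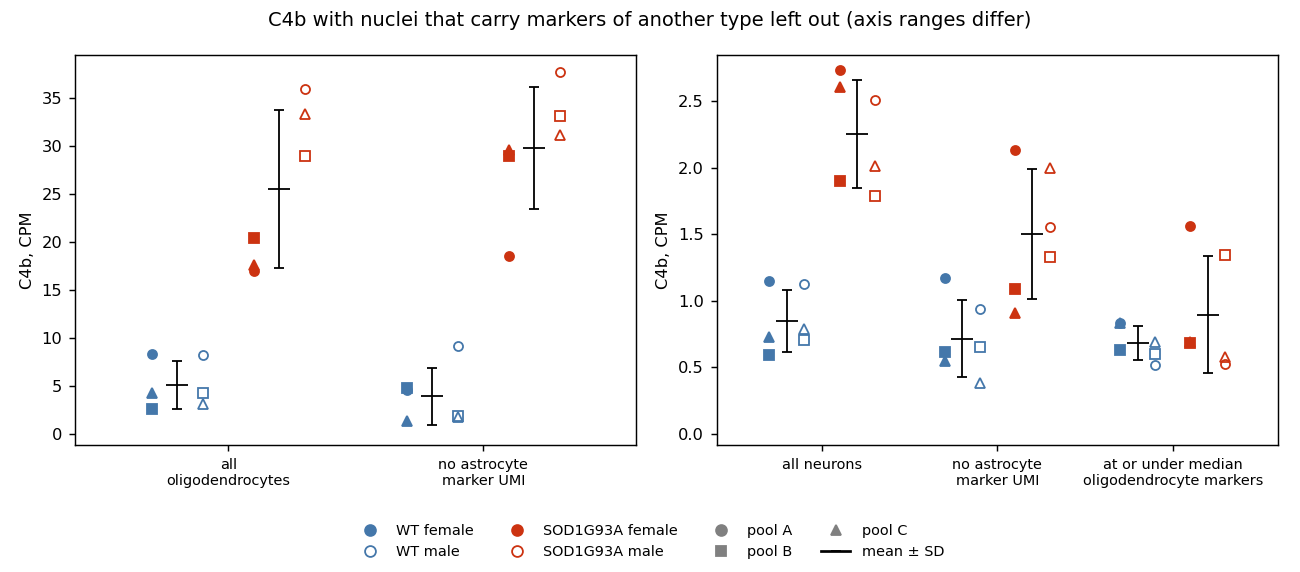
C4b in CPM (vertical axes, with different ranges) in oligodendrocytes and neurons of each mouse, with all nuclei and with nuclei carrying markers of another type left out. Symbols are mice and bars the mean ± SD of 6 mice. The genotypes stay apart in oligodendrocytes and overlap in both reduced sets of neurons.

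The C4b effects were compared between types over the 6 pairs with exact two-sided sign-flip permutation tests on log2(CPM + 1), a scale that understates changes of low levels such as that in neurons (0.82 there, against 1.40 in limma). The smallest p possible is 0.03125, and 9 comparisons of C4b and Clu were adjusted together. On this scale the effect was larger than in neurons by 1.33 in oligodendrocytes and by 0.97 in nuclei labelled microglia (6 of 6 pairs, adjusted p = 0.0703 for both, exact). Without the pseudocount, an alternative added after seeing the data, these differences were 0.96 (5 of 6 pairs, adjusted p = 0.141, exact) and 0.61 (6 of 6 pairs, adjusted p = 0.0703, exact). For astrocytes against neurons the direction depended on the scale, with 0.45 on log2(CPM + 1) (adjusted p = 0.0938, exact) and -0.12 without the pseudocount (3 of 6 pairs, not called), beside limma values of 1.25 and 1.40, so no order of these types is given. Between astrocytes and oligodendrocytes it differed by -0.89, with an SD over pairs of 1.00 (adjusted p = 0.141, exact).

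The share of nuclei with a C4b UMI was compared after each nucleus was thinned to 2000 UMIs. In astrocytes it was 2.73% of 880 WT and 7.01% of 599 SOD1G93A nuclei, and in oligodendrocytes 1.05% of 1147 and 6.00% of 916. Both shares were higher in 6 of 6 pairs (exact sign-flip permutation p = 0.03125, adjusted over the types 0.0781), but at 1000 UMIs per nucleus neither was called (adjusted p = 0.188 for both, exact permutation). In nuclei labelled microglia the share at 2000 UMIs rested on 1 WT and 2 SOD1G93A nuclei with a C4b UMI and gave no call (unadjusted p = 0.5, exact permutation). Neurons, with a mean C4b level of 1.55 CPM over the 12 mice, gave 0.123% and 0.430% at 2000 UMIs, a difference that was not called. Without thinning the shares were 7.23% and 17.2% in astrocytes (median depths 5219 and 5555 UMIs), 3.75% and 14.1% in oligodendrocytes (6263 and 5299) and 1.29% and 2.76% in neurons (12941 and 12749). Most positive nuclei held a single C4b UMI, 73 of 108 in SOD1G93A astrocytes and 96 of 136 in SOD1G93A oligodendrocytes. In SOD1G93A nuclei labelled microglia, which are deeper (median 39032 UMIs), 17 of 37 held a single C4b UMI and 11 held 3 or more.

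Among the deposited oligodendrocyte sub-clusters, C4b was called in sub-cluster 0, where 0.179% of genes were, and in sub-cluster 1, where 0.048% were. In sub-cluster 1 it stood at 0, 3.69 and 8.38 CPM in WT and at 20.7, 27.6 and 42.3 in SOD1G93A mice (log2 fold change 2.65, SE 0.40, FDR 0.0025, limma). In sub-cluster 0 it stood at 0, 7.31 and 11.8 and at 21.7, 37.6 and 69.8 (2.32, SE 0.43, FDR 0.0094), where leaving out 1 mouse gave 1.99 to 2.44 with an FDR above 0.1 in 11 of 12 fits. In both, the SOD1G93A mice all lay above the WT mice, as for 0.134% of genes tested in sub-cluster 0 and 0.16% in sub-cluster 1. In sub-clusters 2, 3 and 4 C4b was under the filter and the genotypes overlapped, with 0 to 15.3 CPM in WT and 0 to 25.6 in SOD1G93A mice in sub-cluster 2. There the SOD1G93A value of 0 was that of the pool A female (20 nuclei), and the other SOD1G93A mice had 9.26 or more. The WT value of 15.3 was also that of the pool A female, and the other WT mice had 9.86 or less.

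Among astrocyte sub-clusters C4b was highest in sub-cluster 3, at 43.1, 64.7 and 192 CPM in WT and 49.7, 90.7 and 138 in SOD1G93A mice. These ranges overlapped (0.62, SE 0.32, FDR 0.636, limma). Elsewhere C4b was under the filter, with means of 16.2 and 29.2 in sub-cluster 0, 1.72 and 17.0 in sub-cluster 1, 3.18 and 24.0 in sub-cluster 2 and 16.7 and 16.9 in sub-cluster 4. Sub-cluster 3 held 9.35% of WT and 18.9% of SOD1G93A astrocyte nuclei on average, sub-cluster 4 held 7.53% and 17.6%, and sub-cluster 1 held 36.9% and 14.7%. In sub-cluster 4 the oligodendrocyte markers lay above the astrocyte markers, with medians of 3844 against 1702 CPM in WT and 2835 against 2127 in SOD1G93A mice. The share of the astrocyte difference that goes with these proportions was not tested.

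**Figure D4:**
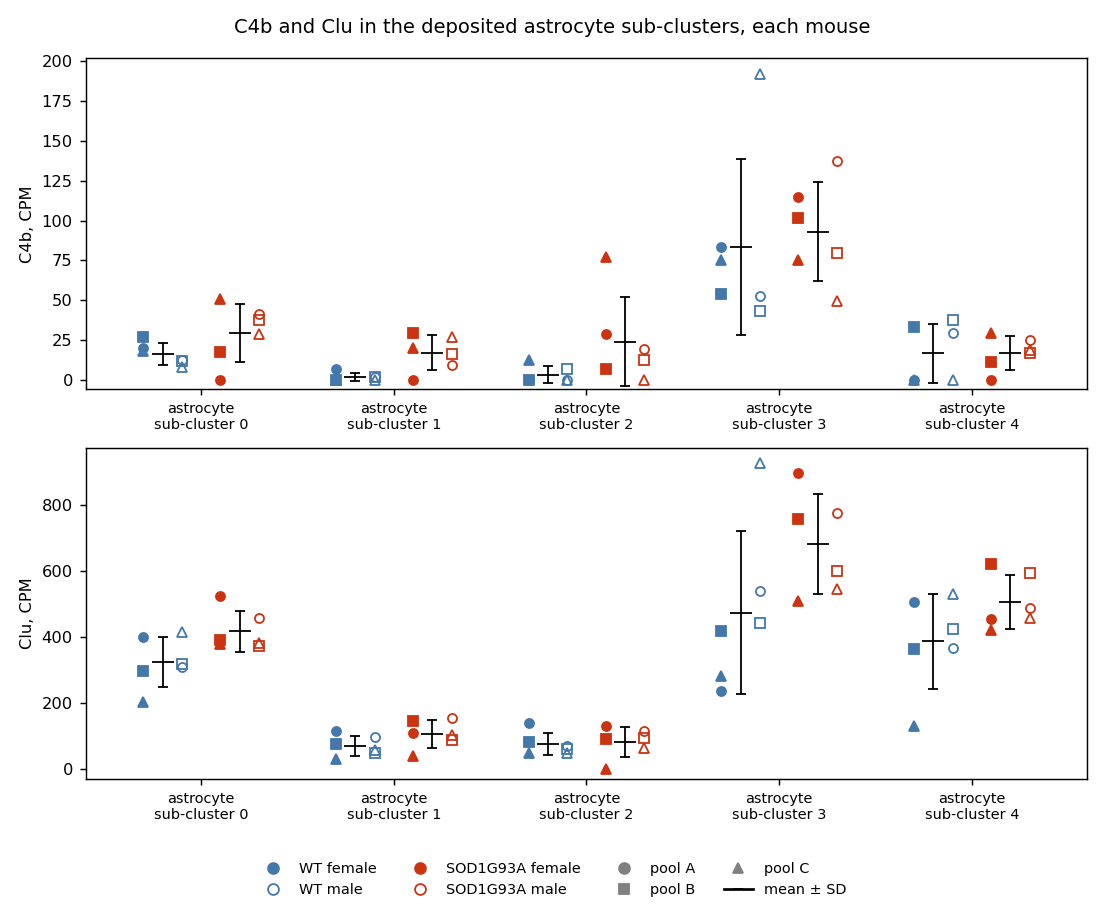
C4b (top) and Clu (bottom) in CPM in the 5 deposited astrocyte sub-clusters. Symbols are mice, filled for females and open for males, and bars are the mean ± SD of 6 mice. Both genes are highest in sub-cluster 3, and the genotypes overlap in every sub-cluster.

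In the other types C4b had few UMIs and was not tested. The means in WT and SOD1G93A mice were 2.78 and 19.5 CPM in nuclei labelled Schwann and meningeal (4 and 36 UMIs), 0.618 and 4.52 in oligodendrocyte precursors, 1.81 and 5.13 in motor neurons, and 1.43 and 1.87 in endothelial nuclei. Ependymal nuclei and fibroblasts went the other way. A C4b UMI was found in 3 WT and 1 SOD1G93A ependymal nuclei and in 2 WT and 0 SOD1G93A fibroblasts. C4a, the near copy of C4b, has no entry among the counted genes and was not analysed here. Of the 50-base windows of the C4b transcript 35.2% also occur in C4a. C4b counts are uncertain to the extent that reads from such stretches were counted at C4b or dropped, which was not tested.

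C3 (chr17:57203970-57228136), the central component on which all complement pathways meet, was rare, with 148 UMIs. Of these, 83 were in astrocytes, and 66 of the 83 were in sub-cluster 3. Astrocytes had 2.06, 8.13 and 10.3 CPM in WT and 2.10, 9.57 and 30.5 in SOD1G93A mice, with wide overlap, and C3 passed the count filter in no single type.

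The C1q chains were counted at low levels in many types. Summed over the chains there were 97.9 CPM in nuclei labelled Schwann and meningeal, 33.9 in nuclei labelled microglia, 16.9 in astrocytes, 9.14 in oligodendrocytes and 4.49 in neurons. In the 15 nuclei of microglia sub-cluster 2, C1qb ran from 43.7 to 129 CPM in WT and from 55.2 to 128 in SOD1G93A mice. These C1qb levels rested on 1 to 3 UMIs in each of the 6 mice with such nuclei. C1qa ran there from 0 to 45.2 CPM in WT and from 42.8 to 110 in SOD1G93A mice, and C1qc from 0 to 131 and from 85.6 to 166. Microglial markers there had medians of 611 and 689 CPM, below the oligodendrocyte markers (2737 and 1846). By number of UMIs, neurons held 657 and nuclei labelled microglia 551 of the 1936 in all. C1qa, C1qb and C1qc made up 37.7%, 32.2% and 30.1% of these UMIs, 36.1%, 29.9% and 33.9% in nuclei labelled microglia and 39.0%, 32.1% and 28.9% in neurons. Pooled over all mice, the 210 neurons with a C1qa UMI carried 50.3 CPM of microglial markers against 12.2 in the 8590 others. They also carried more oligodendrocyte markers (376 against 159 CPM) and astrocyte markers (26.7 against 21.1), at a median depth of 15862 against 12822 UMIs.

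In nuclei labelled microglia no C1q chain was called. C1qb stood at 1.77, 6.29 and 11.6 CPM in WT and 2.04, 14.3 and 20.5 in SOD1G93A mice, higher in 6 of 6 pairs but with overlapping ranges (0.95, SE 0.30, FDR 0.287, limma). C1qa (0.50, SE 0.37, FDR 0.837) and C1qc (0.51, SE 0.27, FDR 0.683) overlapped as well. In microglia sub-cluster 0 C1qb was not called either (1.10, SE 0.28, FDR 0.131, limma), though 1 of 6 fits without 1 mouse called it. No chain was called in neurons, at 0.84 for C1qa (SE 0.19, FDR 0.367, limma), 0.88 for C1qc (SE 0.35) and 0.08 for C1qb (SE 0.33). Of the chains only C1qa passed the count filter in nuclei labelled Schwann and meningeal, at -0.10 (SE 0.45, FDR 0.999, limma).

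Over all nuclei of a mouse, 4 of the 9 members were called higher, C4b, Clu, C1qa and C1qb, against 3.14% of all genes called in either direction. In such sums more cells of a type and more RNA per cell cannot be told apart. C1qa stood at 1.54, 2.52 and 4.03 CPM in WT and at 2.94, 4.12 and 7.49 in SOD1G93A mice (0.78, SE 0.15, FDR 0.0219, limma), and C1qb at 1.44, 2.38 and 2.85 and at 2.16, 2.91 and 6.71 (0.70, SE 0.16, FDR 0.0482). Both were higher in 6 of 6 pairs, with overlapping ranges. C1qc, at 0.929, 2.19 and 3.18 and at 2.40, 3.02 and 5.64, was not called (0.65, SE 0.20, FDR 0.148).

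The share of UMIs from nuclei labelled Schwann and meningeal also differed between genotypes, and its relation to these sums was not tested. These nuclei gave 0.0394% to 1.00% of the UMIs of WT mice and 1.04% to 4.75% of those of SOD1G93A mice. By number they were 0.575% to 6.70% of the nuclei of WT mice and 4.26% to 25.0% of those of SOD1G93A mice, with overlap. With these nuclei left out, a choice made after seeing the data, C1qa and C1qb were no longer called (0.56, FDR 0.294 and 0.42, FDR 0.469, limma), nor was Clu (0.56, FDR 0.114). C4b over all nuclei was called with them (1.83, SE 0.15, FDR 1.06e-04) and without them (1.82, FDR 1.39e-04). With all nuclei it stood at 1.75, 1.92 and 2.93 CPM in WT and at 6.15, 8.20 and 9.86 in SOD1G93A mice. The SOD1G93A mice all lay above the WT mice, as for 0.737% of genes.

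**Figure D5:**
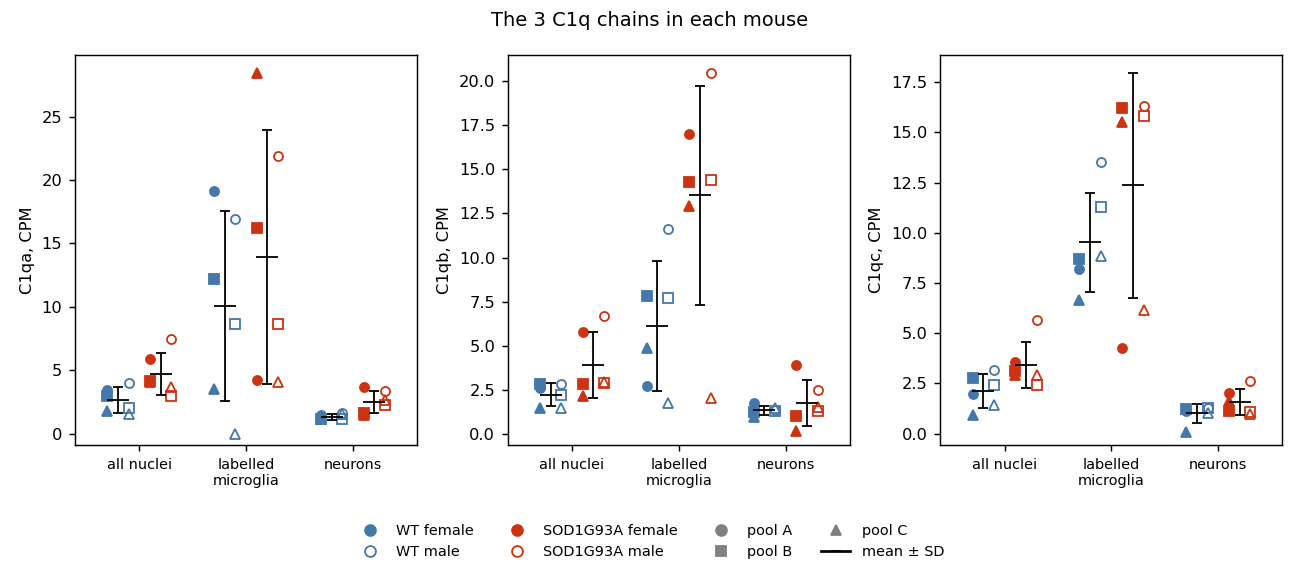
The 3 C1q chains in CPM (vertical axes) in all nuclei, nuclei labelled microglia and neurons. Symbols are mice and bars the mean ± SD of 6 mice. WT and SOD1G93A mice overlap in every panel.

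Among the regulators, Clu (chr14:65968483-65981547) encodes clusterin, a secreted chaperone that also blocks the terminal complement complex. In astrocytes it stood at 125, 214 and 247 CPM in WT and at 296, 390 and 533 in SOD1G93A mice. The SOD1G93A mice all lay above the WT mice, as for 0.899% of genes tested in astrocytes. The log2 fold change was 0.91 (SE 0.12, FDR 1.30e-04, limma). Within pools A, B and C the difference was 1.04, 0.82 and 1.09. In astrocytes at or under the median of oligodendrocyte marker UMIs the log2 fold change was 0.77 (FDR 0.0471, limma), and 0.69 (FDR 0.0594) without the count filter. The call depended on the marker list. It held with Mbp or with Mog as the only marker, but a longer list of oligodendrocyte markers, not reported here, did not give it.

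The Clu effect of astrocytes was larger than that of neurons by 1.06 and of oligodendrocytes by 0.78 (6 of 6 pairs, adjusted p = 0.0703 for both, exact permutation), and than that of nuclei labelled microglia by 0.84 (5 of 6 pairs, adjusted p = 0.0938, exact), which was not called without the pseudocount (0.84, adjusted p = 0.161, exact). Neurons had a median of 22.5 CPM in WT and 20.8 in SOD1G93A mice, and oligodendrocytes 24.4 and 30.5. Mean Clu levels were 297 CPM in WT and 316 in SOD1G93A mice in nuclei labelled Schwann and meningeal, against 202 and 398 in astrocytes.

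In motor neurons Clu stood at 7.52, 12.4 and 53.7 CPM in WT and 22.1, 79.96 and 151 in SOD1G93A mice, higher in 5 of 6 pairs with overlap (1.81, SE 0.53, FDR 0.120, limma, and called in DESeq2 at FDR 0.0507). Leaving out 1 mouse moved the log2 fold change from 1.02, without the pool A WT male, to 2.54, without the pool B WT male (FDR 0.000811), and 6 of 9 other alternatives called it. Over all nuclei it stood at 19.1, 32.2 and 41.8 and at 39.5, 54.4 and 63.8 (0.71, SE 0.10, FDR 0.0100). Within astrocyte sub-clusters no Clu effect was called with the count filter, though each was positive. In sub-clusters 0, 1, 2 and 4 the log2 fold changes were 0.41, 0.61, 0.27 and 0.50 (FDR 0.734, 0.637, 0.961 and 0.981, limma). In sub-cluster 3 Clu stood at 237, 432 and 928 CPM in WT and 511, 681 and 899 in SOD1G93A mice (0.72, SE 0.19, FDR 0.236), and without the filter it was called (0.80, FDR 0.0155).

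Cd46 (chr1:195036826-195092249), a membrane cofactor for the cleavage of C3b and C4b, was the member with the most UMIs, 14611. In motor neurons it stood at 23.7, 31.5 and 41.3 CPM in WT and at 32.4, 79.0 and 181 in SOD1G93A mice. SOD1G93A was higher in 6 of 6 pairs with overlapping ranges, and the log2 fold change was 1.16 (SE 0.31, FDR 0.0703, limma). In fits without 1 mouse the log2 fold change ranged from 0.81 to 1.41, and the call was lost in 6 of 12. A single motor neuron came from 1 SOD1G93A mouse. Oligodendrocyte markers in motor neurons had medians of 116 CPM in WT and 222 in SOD1G93A mice, with overlap, and their part in the Cd46 and Clu differences was not tested. Elsewhere the genotypes overlapped, with medians of 71.9 and 73.6 in neurons, 74.7 and 68.3 in oligodendrocytes and 70.2 and 65.1 in astrocytes.

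Cd59a (chr2:104095801-104115354), which keeps the membrane attack pore from forming, had its highest level in endothelial nuclei, at 69.5, 145 and 175 CPM in WT and 99.1, 137 and 199.8 in SOD1G93A mice. These overlapped, and no type gave a call. Over all nuclei Cd59a stood at 4.53, 8.66 and 10.5 and at 10.1, 11.4 and 15.6 (0.42, SE 0.14, FDR 0.192, limma). Serping1 (chr2:84765387-84775444), the inhibitor of C1r and C1s, had 524 UMIs. In neurons, which held 247 of the 326 WT and 128 of the 198 SOD1G93A UMIs, the medians were 2.85 and 2.23 CPM, with overlap.

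For females against males limma called 0 of 32 tests over cell types, with 2 at an unadjusted p under 0.05 and a lowest FDR of 0.442, against 0.159% of all genes tested in these types. For the genotype effect in males against that in females it called 0 of 32, with 0 at an unadjusted p under 0.05 and a lowest FDR of 0.978, against 0.0058% of all genes. In the sub-clusters it called 0 of 25 for sex (3 at an unadjusted p under 0.05, 0.23% of all genes called) and 0 of 25 for the difference of the genotype effects (2 at an unadjusted p under 0.05, 0.00957% of all genes called). These 2 were C4b in oligodendrocyte sub-cluster 0, with a genotype effect of 1.28 in females and 3.36 in males (FDR of the difference 0.998, limma), and Clu in astrocyte sub-cluster 3, with 1.21 and 0.23 (FDR of the difference 0.540, limma). The difference of log2(CPM + 1) for C4b in pools A, B and C was 0.95, 2.57 and 1.82 in female pairs and 2.004, 2.503 and 3.07 in male pairs in oligodendrocytes.

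The rest of the pathway was read from a list of 58 complement genes, 49 besides the members. Of these, 18 passed the count filter in at least 1 type, and 1 of 75 tests was called, in the lower direction, against 0.568% of all tests in these types and 3.07% in motor neurons, where it fell. Csmd3, a membrane protein with complement control domains, was lower in motor neurons, at 3368, 4036 and 5904 CPM in WT and 1439.9, 2278 and 3915 in SOD1G93A mice (log2 fold change -1.01, SE 0.17, FDR 0.0093, limma), with overlapping ranges. The median log2 fold change of the other list genes was 0.13 over 8 tested in astrocytes (0.02 over all genes), 0.06 over 12 in oligodendrocytes (0.01), -0.36 over 6 in motor neurons (0.00), -0.39 over 9 in endothelial nuclei (-0.01) and -0.78 over 3 in fibroblasts (-0.03). In the other types this median was -0.005 over 17 in neurons (0.001), 0.08 over 7 in nuclei labelled microglia (0.01) and -0.05 over 5 in oligodendrocyte precursors (-0.005). It was -0.09 over 2 in ependymal nuclei (0.002) and 0.12 over 6 in nuclei labelled Schwann and meningeal (-0.001). Cr1l, the main membrane regulator of rodent cells at C3, had medians of 43.0 and 46.7 CPM over all nuclei, with overlap.

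Over 96 sums of 12 mice and 8 types, the genes with the pattern most like each member except C3, which had under 200 UMIs, were found by Pearson's r of log2(CPM + 1). These sums share libraries and depth, so r is a description. C1qa was closest to C1qb (0.74), Ctss (0.71) and Gm1673 (0.68). C1qb was closest to C1qa (0.74), Slc32a1 (0.73) and Pdxp (0.73), and C1qc to C1qb (0.71), Slc6a5 (0.66) and Ptgds (0.66). C4b was closest to Fgfrl1 (0.64), Ank (0.63) and Ccdc13 (0.62), Clu to Tmem106b (0.84), Cd59a to Hspb1 (0.84), Serping1 to Itga5 (0.62) and Cd46 to Map3k2 (0.88).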

How the data were processed

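The counts deposited by the authors are UMIs per gene and nucleus without normalization. Per the labels, bcl2fastq 2.20.0.422, Cell Ranger 3.1, STAR 2.5.1b, Seurat 4.0.3, R 4.0.3 and the mm10 build were used upstream. The authors counted intronic reads, assigned nuclei by hashtag and removed nuclei with several hashtags, and doublets within 1 mouse are not marked. The percent of mitochondrial UMIs deposited by the authors was read for its range only, and their normalized table was not used. Cell types and sub-clusters are the deposited ones.

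UMIs were summed per mouse and cell type. Genes were filtered with filterByExpr (minimum count of 10), scaled with TMMwsp factors and fitted with voom and robust eBayes in limma 3.58.1 and edgeR 4.0.16 (R 4.3.3), with a term for each group and for pool. Benjamini-Hochberg adjustment ran over all genes of a type, and calls were made at 0.1. Microglia sub-cluster 2 had nuclei in 6 mice and could not be fitted. Levels, thinning and exact tests were computed in Python 3.11.15 (numpy 2.4.6, pandas 2.3.3, scipy 1.17.1). Positions come from GENCODE M21. Mice are separate animals, and same-pool mice were prepared together, which is where the pairing comes from. The median correlation of deviations from group means was 0.29 for same-pool mice in neurons (-0.15 for mice of other pools and groups), 0.11 in oligodendrocytes (-0.05), 0.05 in nuclei labelled microglia (-0.02) and 0.03 in astrocytes (-0.01).

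The members, gene lists and tests were chosen with earlier results of these data known. Named genes are the members, list genes called at 0.1, and the most similar genes of each member. Cr1l and Itgam were named after their values were seen. The fit was tested on simulated data. Alternatives were edgeR, DESeq2 1.42.0, no pool term, other filters and scalings, leaving out each mouse, and leaving out nuclei with markers of another type. The marker lists of oligodendrocytes and of nuclei labelled Schwann and meningeal were each shortened by 1 gene, which is not reported here, after results were known. Small UMI numbers per mouse limit the precision.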

Additional observations from a re-analysis of the deposited data

Results flagged for a closer look

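Among 82 groups of 6 mice, 11 held a value far from the other 5 by Dixon's ratio, a test that chance alone trips in about 1 group in 20. Values are CPM. In the female WT mouse of pool B, Cd46 stood at 102.8 in astrocytes (next 71.8) and at 89.6 in neurons (next 76.4). In the female SOD1G93A mouse of pool C, C4b stood at 31.0 in nuclei labelled microglia (next 16.4, 12 UMIs) and Clu at 180.5 in oligodendrocyte precursors (next 55.9, 2 UMIs). Cd46 stood at 75.2 in nuclei labelled microglia of the female SOD1G93A mouse of pool B (next 51.7). In the male WT mouse of pool B, Clu stood at 53.7 in motor neurons (next 23.7), and Cd59a stood at 138.3 in nuclei labelled Schwann and meningeal (next 38.8, 2 UMIs). C1qc stood at 0.0664 in neurons of the female WT mouse of pool C (next 1.05, 1 UMI). Cd59a stood at 6.61 in neurons of the female SOD1G93A mouse of pool A (next 4.77). Clu stood at 88.1 in oligodendrocyte precursors of the male WT mouse of pool C (next 31.6). C1qc over all nuclei stood at 5.64 in the male SOD1G93A mouse of pool A (next 3.59).

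The genotype effects differed between cell types in 6 of 9 comparisons at an adjusted p under 0.1 in exact sign-flip permutation tests on log2(CPM + 1). For C4b the effect on this scale exceeded that of neurons by 0.45 in astrocytes, 1.33 in oligodendrocytes and 0.97 in nuclei labelled microglia. This scale shrinks the neuronal effect, and without the pseudocount the astrocyte difference turned to -0.12 and that of oligodendrocytes was no longer called. For Clu the effect of astrocytes exceeded that of oligodendrocytes by 0.78, of nuclei labelled microglia by 0.84 and of neurons by 1.06, and without the pseudocount that against nuclei labelled microglia was not called.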

How the results depend on the processing

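C4b in astrocytes and oligodendrocytes and Clu in astrocytes stayed called in all 12 fits without 1 mouse, with log2 fold changes of 1.15 to 1.35, 2.10 to 2.49 and 0.83 to 0.99. C4b in nuclei labelled microglia ranged from 1.83 to 2.11 and lost its call when the pool A SOD1G93A male was left out. The number of combinations of member and cell type called ranged from 3, without that mouse, to 7, against 6. In alternatives added after the data were seen, C4b in nuclei labelled microglia was 2.20 (FDR 0.947) without nuclei carrying an astrocyte marker UMI and 1.90 (FDR 0.116) without those above the median of oligodendrocyte markers, both on fewer nuclei and without a count filter. Clu in astrocytes was 0.77 (FDR 0.0471) under the latter choice, 0.75 (FDR 0.0740) with Mbp as the only marker and 0.90 (FDR 5.71e-05) with Mog as the only marker. C4b in neurons without an astrocyte marker UMI was 0.96 (FDR 1.00).

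The difference in the share of nuclei with a C4b UMI, SOD1G93A minus WT, lost its call at 1000 UMIs in astrocytes (2.73 percentage points) and oligodendrocytes (2.29). In nuclei labelled microglia it was -1.01 at 1000 UMIs and 23.7 without thinning, where it was called (adjusted p = 0.075, exact permutation). In neurons it was 1.46 without thinning, where it was also called (adjusted p = 0.0625, exact permutation). The cause was not tested. Without a pseudocount, an alternative added after the data were seen, the C4b effect of astrocytes against neurons was -0.12 and that of oligodendrocytes against neurons 0.96 (not called), that of astrocytes against nuclei labelled microglia was -0.73 (called), and the Clu effect of astrocytes against nuclei labelled microglia was 0.84 (not called). The neuronal C4b level lies near 1 CPM, so a pseudocount of 1 lowers its effect.

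Without the replicate block for pool, 4 combinations of member and cell type were called. C4b stayed called in astrocytes (1.23), oligodendrocytes (2.43) and nuclei labelled microglia (1.87), as did Clu in astrocytes (0.90). C4b in neurons (FDR 0.136), Cd46 in motor neurons (FDR 0.173) and, over all nuclei, Clu (FDR 0.111), C1qa (FDR 0.300) and C1qb (FDR 0.423) did not. Leaving out the nuclei labelled Schwann and meningeal, which ended the calls of C1qa, C1qb and Clu over all nuclei, was also chosen after the data were seen. C1qb over all nuclei was lost in 9 of 12 fits without 1 mouse. edgeR called 6 combinations and DESeq2 5, with C4b in astrocytes and nuclei labelled microglia given no adjusted p, and 7 without independent filtering. Clu in motor neurons, C1qc over all nuclei and Cd59a over all nuclei were called in at least 1 alternative.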
